A study of Homo sapiens with 9 samples.

Results

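The genes described here are those of the laminin subunits, the chains from which laminin proteins are assembled. They were chosen by symbol, as the 9 rows of the expression table named LAMA1, LAMA2, LAMA3, LAMA4, LAMA5, LAMB1, LAMB2, LAMB3 and LAMC1, out of 57736 rows in all, and all 9 passed the filter on low counts that left 14614 genes for testing. RNA was sequenced from SKMEL-147, a human melanoma cell line, in 9 libraries that form 3 groups of 3. The sgScr group carried a scrambled guide RNA, and the sgPHF8-1 and sgPHF8-3 groups each carried a different guide RNA against PHF8, a chromatin enzyme that removes methyl groups from histones. Every group, the control included, had been transduced with lentiviruses for Cas9 and for a guide RNA, the cells were transduced populations and not single clones, and the time from transduction to RNA harvest was not given in the sources used here. The comparisons ask which laminin genes differ in expression once PHF8 has been targeted.

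Laminins are large secreted glycoproteins, each a cross-shaped trimer of 1 α, 1 β and 1 γ chain wound together in a coiled coil. The trimer forms inside the cell, β and γ chains pair first, and addition of an α chain allows secretion. Laminins polymerize into the basement membrane, the sheet beneath epithelia and around vessels, muscle and nerve, and cells hold on to them through integrins and dystroglycan. Melanoma cells cross such a sheet when they leave the epidermis or enter a vessel, and tumor cells can make laminins of their own.

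Total gene counts ranged from 17366120 to 19838142 per library. PHF8 mRNA was at 655, 606 and 634 normalized read counts in the sgScr libraries, at 564, 571 and 565 with sgPHF8-1 and at 400, 387 and 434 with sgPHF8-3, so no PHF8-targeted library reached the control range. The fitted log2 fold change was -0.16 ± 0.0548 (SE) for sgPHF8-1 (adjusted p = 0.0253) and -0.63 ± 0.0579 for sgPHF8-3 (adjusted p = 2.32e-11). A guide RNA alters the gene rather than its transcript level, so these values do not measure the loss of the protein.

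As a check of the label, SOX10 was at 2771 ± 60.4 (SD, n = 3) normalized read counts and MITF at 252.9 ± 17.7 in sgScr, whereas the pigment gene PMEL was at 7.49 ± 3.17. Of the rest of the melanocyte list, PAX3 was at 456 ± 27.5 in sgScr. S100B, DCT, S100A1 and TYRP1 were at means of 6.89, 3.125, 0.633 and 0.317. MLANA and TYR had no paired counts and are not in the sum, of which SOX10 made up most. The summed melanocyte list ranged from 3443 to 3528 in sgScr, from 3040 to 3161 with sgPHF8-1 and from 3213 to 3306 with sgPHF8-3, and of its 3 tested genes 2 fell with sgPHF8-1 and 1 with sgPHF8-3, SOX10 with both (log2 fold changes of -0.18 and -0.11). Over all genes tested, 15.7% fell and 15.5% rose with sgPHF8-1, and 10.1% fell and 9.89% rose with sgPHF8-3. The dedifferentiated melanoma list summed to 58540 to 59740 in sgScr, 50380 to 50950 with sgPHF8-1 and 55050 to 56670 with sgPHF8-3. Its members moved both ways, with 4 of 8 falling and 2 rising with sgPHF8-1 and 3 falling and 1 rising with sgPHF8-3, beside the shares of all genes just given. NES (-0.37 and -0.30), NGFR (-0.70 and -0.29) and WNT5A (-0.12 and -0.13) fell with both guides, and AXL, at 27920 ± 178 in sgScr, did not pass with either.

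Markers of other cell types were also read. Of the keratinocyte list, KRT5 and DSG3 were at 0 and TP63 at 0.317 ± 0.548 in sgScr, but KRT14 was at 40.0 ± 3.55 and KRT10 at 316 ± 3.02, and of the 2 tested genes KRT14 fell with both guides (-1.10 and -0.90) and KRT10 did not pass. The list summed to 354 to 359 in sgScr, 342 to 371 with sgPHF8-1 and 334 to 376 with sgPHF8-3. The fibroblast list summed to 378 to 424, 400 to 436 and 322 to 370, and 1 of its 3 tested genes was called lower with each guide, PDGFRB with sgPHF8-1 and LUM with sgPHF8-3. PDGFRB had raw counts of 13 to 21 in sgScr, 2 to 7 with sgPHF8-1 and 9 to 12 with sgPHF8-3. It met the low-count filter only through sgScr and sgPHF8-3 libraries, where it was higher, and its call is not read as a result. The leukocyte list summed to 12.1 to 27.2, 13.8 to 17.3 and 19.03 to 33.3, and its 1 tested gene, ITGAM, was called higher with sgPHF8-3. ITGAM had raw counts of 4 to 15 in sgScr, 4 to 8 with sgPHF8-1 and 12 to 25 with sgPHF8-3. It could not have met the low-count filter without the sgPHF8-3 libraries, and its call is not read as a result. The endothelial list summed to at most 23.3 in any library, and none of its genes was tested. Over all genes tested, 15.7% were called lower and 15.5% higher with sgPHF8-1, and 10.1% lower and 9.89% higher with sgPHF8-3. The part of these markers in the laminin values was not tested.

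Library B of sgPHF8-1 and library C of sgPHF8-3 stood farthest from the rest of their groups. The chi-square per degree of freedom was 2.94 and 3.87 between sgPHF8-1 B and the other sgPHF8-1 libraries, against 1.79 between those, and 3.02 and 2.06 between sgPHF8-3 C and the other sgPHF8-3 libraries, against 1.57 between those. The sgPHF8-1 B library also had the fewest genes with a count, 22427 against 23035 to 23229 elsewhere. No laminin call against sgScr changed without either library.

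Against sgScr, 6 of the 9 laminin genes passed the test (edgeR's quasi-likelihood test, Benjamini-Hochberg adjusted p below 0.05 over all genes) with sgPHF8-1 and 4 of 9 with sgPHF8-3. With sgPHF8-1, LAMB1 and LAMB3 rose and LAMA5, LAMB2 and LAMC1 fell. The 6th was LAMA1, higher with sgPHF8-1, which met the low-count filter only through the PHF8-targeted libraries and is read below from a fit without that filter. With sgPHF8-3, LAMB3 rose, and LAMA5, LAMB2 and LAMC1 fell. Among all genes tested, 31.2% were called with sgPHF8-1 (15.5% higher and 15.7% lower) and 20% with sgPHF8-3 (9.89% higher and 10.1% lower), and the median log2 fold change of the 9 laminin genes was 0.22 and 0.06, beside a median of all genes tested of 0.000282 and -0.000757. Both comparisons use the same 3 control libraries. Because bulk RNA from a cell population was measured, fewer cells with a transcript and less transcript per cell cannot be told apart. The p-values rest on 3 libraries per group, with 1 spread per gene estimated within groups over all 9 libraries and drawn toward the trend across genes.

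**Figure D1:**
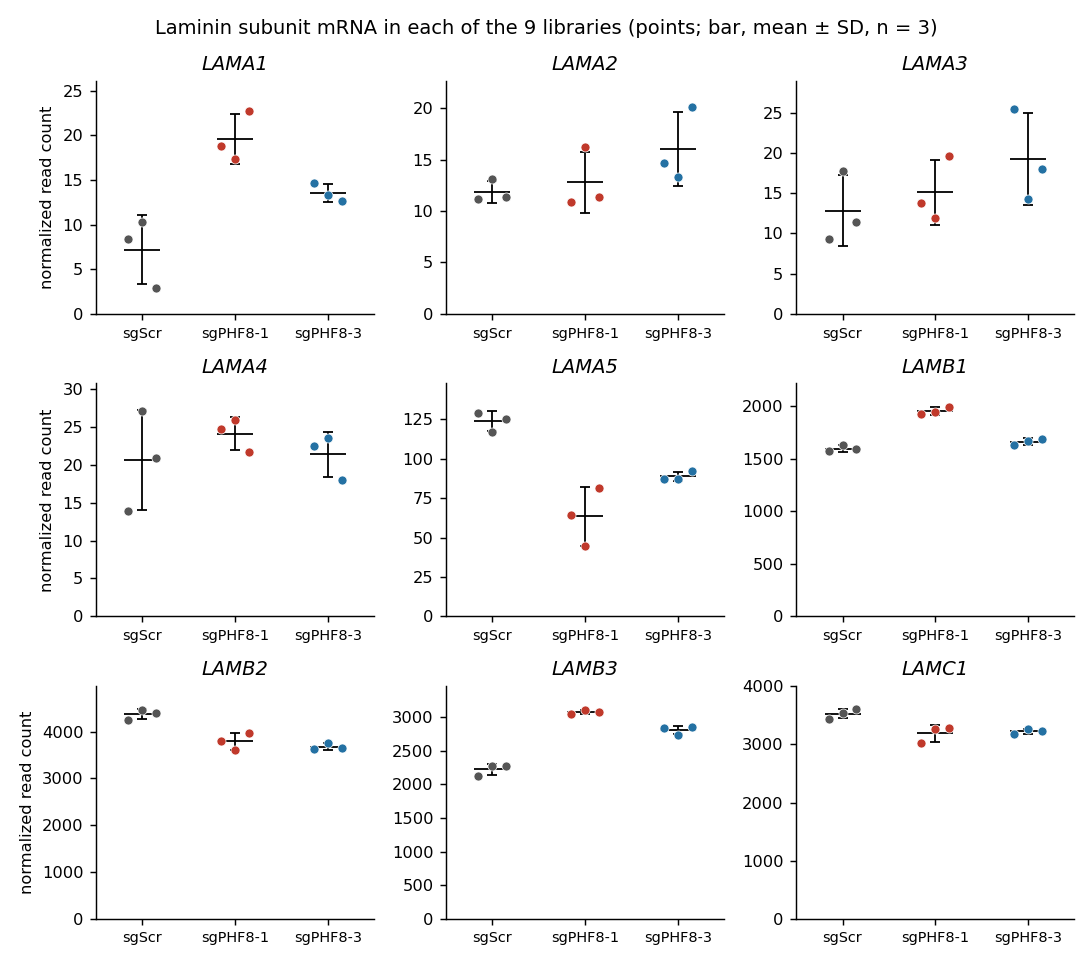
Normalized read count (y axis, from 0, a scale of its own in each panel) of the 9 laminin genes in each library of sgScr, sgPHF8-1 and sgPHF8-3 (x axis). Points are libraries, and bars give the mean ± SD of 3. The LAMB3 points of both PHF8-targeted groups lie above all sgScr points, and those of LAMA5, LAMB2 and LAMC1 lie below them.

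Of the 4 genes that changed with both guides, LAMB3 rose and LAMA5, LAMB2 and LAMC1 fell, and the sequences just before the transcription starts of LAMB3, LAMA5 and LAMC1 are shown here. The LAMB2 window overlaps annotated exon sequence and is described without being printed. The sequences are the 250 bases before each RefSeq start (GRCh38.p14), 5′ to 3′ on the strand of the gene, and capitals mark matches to the GC box letters GGGCGG and to the AP-1 letters TGANTCA, on either strand. LAMB3 has 3 annotated starts in this table, and the first and the most downstream are given.
LAMB3, upstream start (chr1:209652426-209652675, strand -): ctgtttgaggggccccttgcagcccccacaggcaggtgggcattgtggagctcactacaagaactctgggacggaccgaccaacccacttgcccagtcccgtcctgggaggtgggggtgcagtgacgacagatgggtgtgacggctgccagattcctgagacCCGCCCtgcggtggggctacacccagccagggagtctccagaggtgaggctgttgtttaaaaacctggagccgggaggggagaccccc
LAMB3, downstream start (chr1:209651375-209651624, strand -): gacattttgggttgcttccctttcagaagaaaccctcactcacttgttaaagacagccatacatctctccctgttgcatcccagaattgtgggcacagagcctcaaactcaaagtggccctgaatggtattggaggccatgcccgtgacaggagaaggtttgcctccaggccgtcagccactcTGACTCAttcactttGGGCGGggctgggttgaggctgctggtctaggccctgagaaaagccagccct
LAMA5 (chr20:62367313-62367562, strand -): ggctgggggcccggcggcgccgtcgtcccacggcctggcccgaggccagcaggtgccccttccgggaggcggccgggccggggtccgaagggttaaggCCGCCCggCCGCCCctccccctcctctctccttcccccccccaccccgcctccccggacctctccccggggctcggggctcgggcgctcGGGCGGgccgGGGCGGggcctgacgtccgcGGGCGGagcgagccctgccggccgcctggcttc
LAMC1 (chr1:183023170-183023419, strand +): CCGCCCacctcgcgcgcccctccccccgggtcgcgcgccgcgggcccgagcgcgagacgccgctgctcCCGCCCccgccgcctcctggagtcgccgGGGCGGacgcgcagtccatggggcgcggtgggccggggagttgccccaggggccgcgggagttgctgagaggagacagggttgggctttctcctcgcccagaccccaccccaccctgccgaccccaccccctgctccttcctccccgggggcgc

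The windows of the genes that fell did not share a base composition. The LAMA5 window was 82.8% G and C, the LAMC1 window 79.6% and the LAMB2 window 58.4%, the LAMB3 windows were 64% (upstream) and 54% (downstream), and the median over 35116 promoter windows was 58%. LAMA5 held 5 GC box matches, LAMC1 held 3, and LAMB2 and each printed LAMB3 window held 1, and 42.6% of all windows held at least 1. An AP-1 match, which 6.57% of all windows held, was found in the downstream LAMB3 window at position -67 from the start and in none of LAMA5, LAMB2 and LAMC1. The letters TATAAA, held by 10.7% of all windows, were in none of these 5 windows, and the SMAD box letters CAGAC, held by 38% of all windows, were in those of LAMB2 and LAMC1. The GC box, AP-1, TATA and SMAD letters do not contain one another. A match describes the letters of a window and was not tested for binding. Of the 9 genes, 8 had a window in the table.

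The α chains carry the globular domains that bind receptors at the foot of the cross. Their genes were the lowest expressed among the laminin genes described here. LAMA5 (chr20:60883011-60942368, GRCh37, minus strand, 80 exons in its reference transcript) encodes the α5 chain of laminin-511 and laminin-521, which are broadly found in adult basement membranes. It was at 129, 117 and 125 normalized read counts in sgScr, at 64.2, 44.4 and 81.6 with sgPHF8-1 and at 87.2, 87.1 and 92.0 with sgPHF8-3. The 3 groups did not overlap: every control library was above every library of the PHF8-targeted groups, and sgPHF8-1 libraries were the lowest. The log2 fold change was -0.96 ± 0.141 (SE) with sgPHF8-1 (adjusted p = 7.34e-07), a fall to 0.51 of the control level, and -0.48 ± 0.131 with sgPHF8-3 (adjusted p = 0.00661), a fall to 0.72 of it. DESeq2 gave an adjusted p of 0.0586 for the latter, at the same log2 fold change of -0.48. The lowest of the sgPHF8-1 values came from library B, and without it the log2 fold change for sgPHF8-1 was -0.76 (adjusted p = 1.18e-05).

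LAMA1 (chr18:6941741-7117796, minus strand, 63 exons) encodes the α1 chain of laminin-111, best known from the early embryo. Its raw counts in sgScr were 9, 11 and 3, so that it passed the low-count filter only through the PHF8-targeted libraries, and its call after that filter is not read as a result. It was at 8.36, 10.3 and 2.85 normalized read counts in sgScr, at 18.8, 17.3 and 22.7 with sgPHF8-1 and at 14.7, 13.3 and 12.7 with sgPHF8-3. No groups overlapped, and the order was sgScr, sgPHF8-3, sgPHF8-1. In the edgeR fit with no filter on low counts, which tests a gene whatever its level, the log2 fold change was 1.43 with sgPHF8-1 (adjusted p = 0.00116) and 0.90 with sgPHF8-3 (adjusted p = 0.177), which did not pass. Over 15 alternative settings the log2 fold change ran from 1.06 to 1.78 with sgPHF8-1 and from 0.538 to 1.25 with sgPHF8-3. DESeq2 gave LAMA1 no adjusted p. A long noncoding gene on the opposite strand covers 10.35% of the merged LAMA1 exons, and without knowledge of the strand setting used in counting, its reads cannot be told apart from those of LAMA1. No gene overlapping the exons of another laminin gene covered more than 2.43% of them.

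The other 3 α chain genes did not pass the test in any comparison. LAMA2 (chr6:129204283-129837711, plus strand), which encodes the α2 chain of muscle and Schwann cell laminin, was at 11.2, 13.1 and 11.4 normalized read counts in sgScr, at 10.9, 16.2 and 11.4 with sgPHF8-1 and at 14.7, 13.3 and 20.1 with sgPHF8-3. LAMA3 (chr18:21269417-21536186, plus strand), which encodes the α3 chain of the epithelial anchoring laminin-332, ranged from 9.29 to 17.8 in sgScr, from 11.9 to 19.6 with sgPHF8-1 and from 14.3 to 25.5 with sgPHF8-3. LAMA4 (chr6:112429134-112576141, minus strand), which encodes the α4 chain typical of endothelium, ranged from 13.9 to 27.2 in sgScr, from 21.7 to 26.0 with sgPHF8-1 and from 17.97 to 23.6 with sgPHF8-3. The LAMA3 and LAMA4 groups overlapped, and LAMA2 overlapped between sgPHF8-1 and sgScr. The 95% intervals of their log2 fold changes against sgScr were wide, from -0.58 to 0.78 for LAMA2, from -0.44 to 0.92 for LAMA3 and from -0.30 to 0.75 for LAMA4 with sgPHF8-1, and from -0.22 to 1.07, -0.05 to 1.23 and -0.49 to 0.59 with sgPHF8-3. Each of these genes had fewer than 30 counts in every library.

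The β chains each form a short arm of the cross and join the α and γ chains in its stem, and the 3 β chain genes moved in different directions. LAMB3 (chr1:209788215-209825770, minus strand, 23 exons) encodes the β3 chain, found in the epithelial laminin-332. It was at 2125, 2263 and 2274 normalized read counts in sgScr, at 3047, 3096 and 3072 with sgPHF8-1 and at 2833, 2738 and 2845 with sgPHF8-3. All PHF8-targeted libraries were above all control libraries, and those with sgPHF8-1 were above those with sgPHF8-3. The log2 fold change was 0.47 ± 0.0332 (SE) with sgPHF8-1 (adjusted p = 4.69e-15), 38.3% above control, and 0.34 ± 0.0334 with sgPHF8-3 (adjusted p = 2.04e-10), 26.3% above control.

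LAMB2 (chr3:49158547-49170551, minus strand, 32 exons) encodes the β2 chain of laminin-521 and laminin-221, known from the kidney filter and the neuromuscular junction. It was at 4257, 4465 and 4396 normalized read counts in sgScr, at 3794, 3616 and 3969 with sgPHF8-1 and at 3634, 3756 and 3652 with sgPHF8-3. The control libraries were the highest, and the PHF8-targeted groups overlapped each other. The log2 fold change was -0.20 ± 0.0331 with sgPHF8-1 (adjusted p = 4.02e-06) and -0.25 ± 0.0331 with sgPHF8-3 (adjusted p = 2.05e-07). A pseudogene, LAMB2P1, lies on the same chromosome at chr3:49177519-49198284, and reads that fit both could have been left out or split in counting.

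LAMB1 (chr7:107564244-107643658, minus strand, 34 exons) encodes the β1 chain of the most widespread laminins, among them laminin-111. It was at 1569, 1628 and 1588 normalized read counts in sgScr, at 1923, 1941 and 1992 with sgPHF8-1 and at 1626, 1668 and 1689 with sgPHF8-3. The sgPHF8-1 libraries were above all others, and sgPHF8-3 overlapped the control. The log2 fold change was 0.29 ± 0.0349 with sgPHF8-1 (adjusted p = 8.84e-09). With sgPHF8-3 it was 0.06 ± 0.0355 (adjusted p = 0.272), with a 95% interval from -0.01 to 0.13.

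LAMC1 (chr1:182992555-183114727, plus strand, 28 exons) encodes the γ1 chain shared by most laminins. It was at 3440, 3545 and 3601 normalized read counts in sgScr, at 3019, 3265 and 3287 with sgPHF8-1 and at 3174, 3258 and 3236 with sgPHF8-3. All PHF8-targeted libraries were below the control libraries. The log2 fold change was -0.15 ± 0.0331 with sgPHF8-1 (adjusted p = 0.000588) and -0.13 ± 0.0331 with sgPHF8-3 (adjusted p = 0.00339), to 0.904 and 0.913 of the control level.

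**Figure D2:**
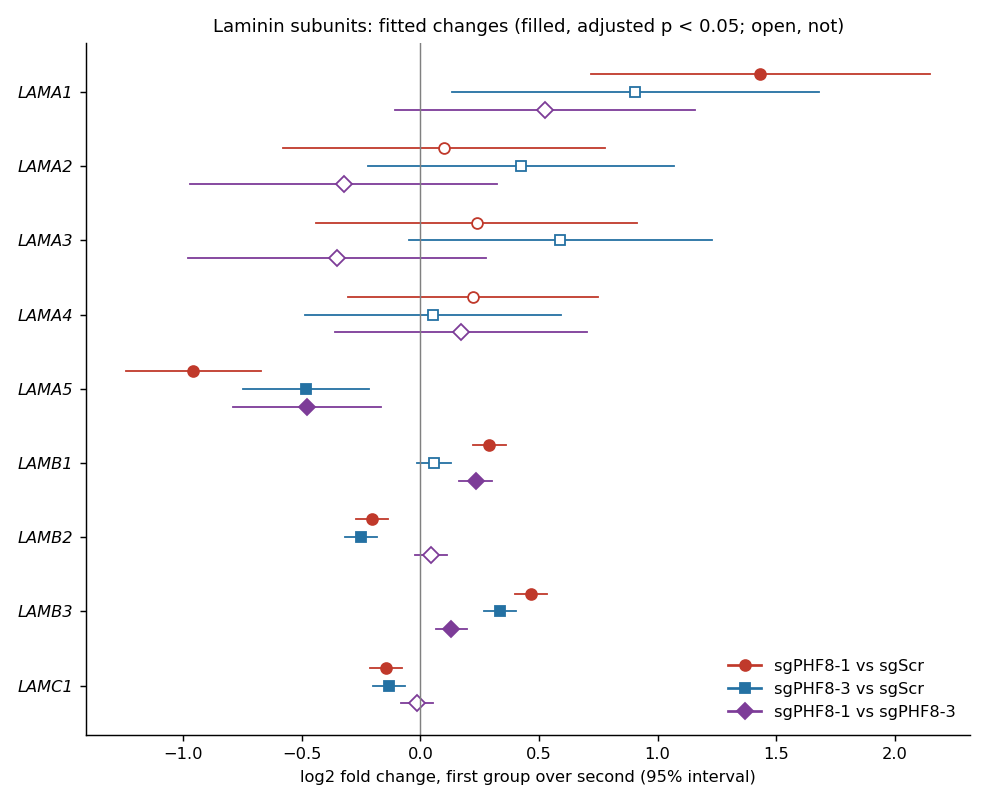
Log2 fold change of each laminin gene (x axis, first group over second) with its 95% interval (line) for sgPHF8-1 against sgScr, sgPHF8-3 against sgScr and sgPHF8-1 against sgPHF8-3. Filled symbols have an adjusted p below 0.05. LAMB3 lies to the right of 0 with both guides, LAMA5, LAMB2 and LAMC1 lie to the left, and the intervals of LAMA1 to LAMA4 are the widest.

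The guides were then set against each other, which tests whether their changes against the shared control differ. Here 3 of the 9 genes passed, LAMB1 and LAMB3 higher and LAMA5 lower with sgPHF8-1, where 11.2% of all genes tested were called (5.11% higher and 6.06% lower). The log2 difference, sgPHF8-1 over sgPHF8-3, was 0.23 ± 0.0351 (SE) for LAMB1 (adjusted p = 6.41e-06), 0.13 ± 0.0327 for LAMB3 (adjusted p = 0.00558) and -0.48 ± 0.154 for LAMA5 (adjusted p = 0.0353). The LAMA5 difference was -0.28 (adjusted p = 0.261) without library B of sgPHF8-1 and -0.45 (adjusted p = 0.108) without library C of sgPHF8-3, and the LAMB3 difference had an adjusted p of 0.0629 without library B of sgPHF8-3, when LAMB1 alone of the 9 passed. For LAMB2 and LAMC1 the 95% intervals of the difference ran from -0.02 to 0.11 and from -0.08 to 0.05, and neither passed. PHF8 mRNA was lower with sgPHF8-3 than with sgPHF8-1, whereas LAMB1, LAMB3 and LAMA5 were farther from control with sgPHF8-1, and the part of PHF8 level in these differences was not tested.

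Levels of different genes were compared per kilobase of the reference (MANE Select) transcript, on the scale of normalized read counts per kb. In sgScr the order was LAMB2 at 768 ± 18.7 (SD, n = 3), LAMB3 at 553 ± 20.7, LAMC1 at 445 ± 10.3 and LAMB1 at 282 ± 5.32, followed by LAMA5 at 10.8 ± 0.542 and LAMA4 at 2.86 ± 0.915. LAMA2 (1.23 ± 0.11), LAMA3 (1.204 ± 0.416) and LAMA1 (0.744 ± 0.401) came last. The libraries of LAMA2 and LAMA3 overlapped, as did those of LAMA3 and LAMA1, whereas the neighbors from LAMB2 down to LAMA2 did not overlap. Lengths of merged exons in place of the transcript left the first 6 places as they were and reordered the last 3. The levels themselves moved, in sgScr to 85.8 per kb for LAMB1 and to 0.450 for LAMA2. The levels, sums and shares per kb given here therefore hold for the reference transcript only. With both PHF8 guides LAMB3 stood above LAMB2, at 765 ± 6.10 against 666 ± 31.0 per kb with sgPHF8-1 and at 699 ± 14.6 against 647 ± 11.6 with sgPHF8-3.

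**Figure D3:**
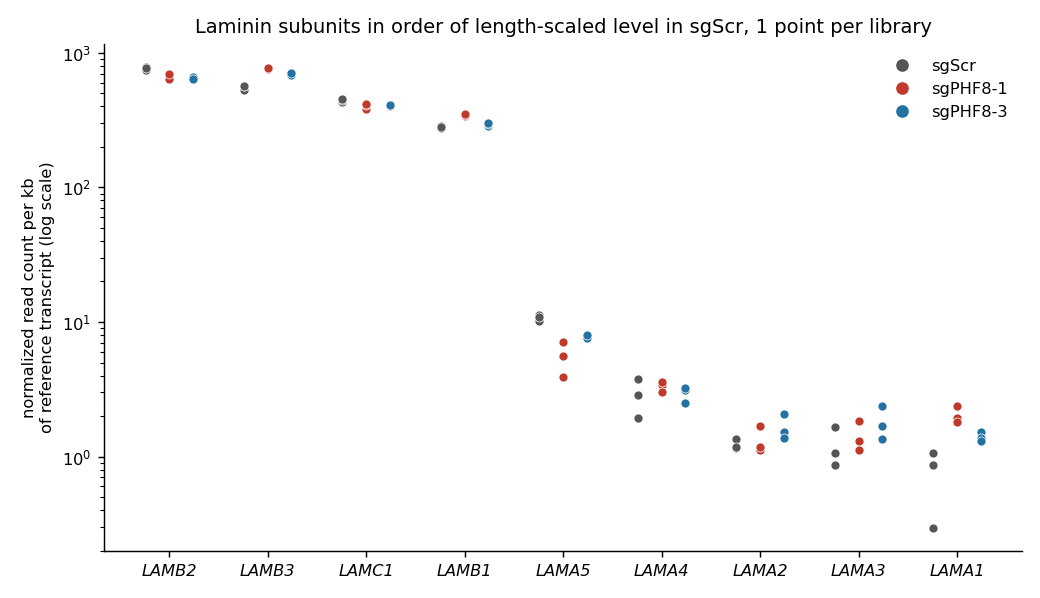
Normalized read count per kb of reference transcript (y axis, log scale) for each laminin gene, ordered by its sgScr mean (x axis), with 1 point per library. The β chain genes and LAMC1 lie above 277 per kb in every library, and all α chain genes lie below 11.4.

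Taken over chains, the α chain genes summed to 16.9 ± 1.07 normalized read counts per kb in sgScr, 13.7 ± 1.74 with sgPHF8-1 and 15.6 ± 0.597 with sgPHF8-3, whereas the β chain genes summed to 1604 ± 43.0, 1777 ± 34.0 and 1639 ± 8.97. The summed β level was thus 95.2 ± 4.29 times the summed α level in sgScr, 131 ± 14.1 times with sgPHF8-1 and 105 ± 4.21 times with sgPHF8-3. LAMA5 made up 64.5% ± 7.04 of the summed α level in sgScr, 40.1% ± 7.11 with sgPHF8-1 and 49.9% ± 2.37 with sgPHF8-3. Among the β chain genes, LAMB3 made up 34.5% ± 0.464, 43.1% ± 0.958 and 42.6% ± 0.848 of the summed level, and LAMB2 47.9% ± 0.211, 37.5% ± 1.079 and 39.4% ± 0.758. The summed normalized read count of all 9 genes stayed close between groups, at 11890 ± 288 in sgScr, 12140 ± 296 with sgPHF8-1 and 11530 ± 84.8 with sgPHF8-3, and both PHF8-targeted groups overlapped sgScr.

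Ratios of raw counts within a library do not depend on how libraries are scaled. The count of LAMB3 to that of LAMB2 was 0.499, 0.507 and 0.517 in the sgScr libraries, 0.803, 0.856 and 0.774 with sgPHF8-1 and 0.780, 0.729 and 0.779 with sgPHF8-3. Control libraries did not overlap the others, and the PHF8-targeted groups overlapped each other. The mean ratio was 1.597 times the control with sgPHF8-1 and 1.502 times with sgPHF8-3, each with p = 0.1 in a two-sided exact permutation test, the smallest p that 3 against 3 can give. The ratio of LAMB3 to LAMC1 was 0.629 ± 0.0105 (SD, n = 3) in sgScr, 0.964 ± 0.0397 with sgPHF8-1 and 0.871 ± 0.0272 with sgPHF8-3. That of LAMA5 to LAMC1 was 0.0351 ± 0.00228, 0.0199 ± 0.00575 and 0.0276 ± 0.000844. Over 21 such sums, shares and ratios in 3 comparisons, 63 in all, the lowest Benjamini-Hochberg adjusted p was 0.15.

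**Figure D4:**
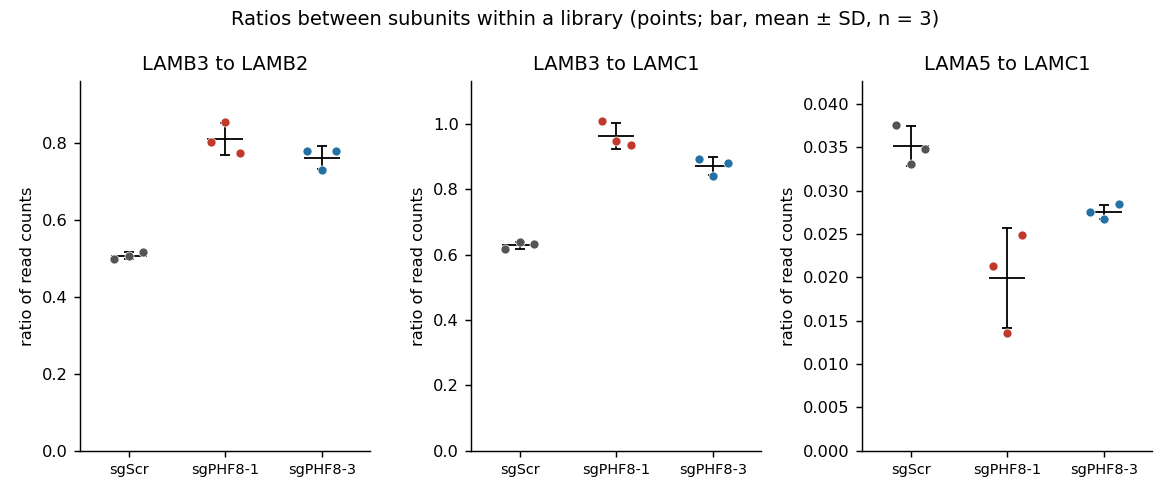
Ratio of raw read counts between laminin genes within each library (y axis, from 0) in sgScr, sgPHF8-1 and sgPHF8-3 (x axis). Points are libraries, and bars give the mean ± SD of 3. LAMB3 to LAMB2 and LAMB3 to LAMC1 lie higher, and LAMA5 to LAMC1 lower, in every PHF8-targeted library than in every sgScr library.

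The genes of laminin receptors and of proteins that associate with them, such as SGCB, SGCE and CD151, were examined as a list of 10, all of which were tested. With sgPHF8-1, 5 fell and 1 rose, and with sgPHF8-3, 4 fell and 0 rose, with a median log2 fold change of the list of -0.17 and -0.12. Over all genes tested, 15.7% fell and 15.5% rose with sgPHF8-1, and 10.1% fell and 9.89% rose with sgPHF8-3, and no list was tested against these shares. DAG1, which encodes dystroglycan, fell from 3816 ± 111 (SD, n = 3) normalized read counts in sgScr to 2300 ± 70.6 with sgPHF8-1 and 2727 ± 70.9 with sgPHF8-3, log2 fold changes of -0.73 ± 0.0333 (SE, adjusted p = 3.03e-21) and -0.48 ± 0.0327 (adjusted p = 5.22e-15). BCAM, the Lutheran receptor of the α5 chain, fell by 0.55 and 0.37 on the log2 scale (adjusted p = 3.44e-06 and 0.0015). ITGA3, the α3 integrin subunit, fell by 0.22 and 0.23 (adjusted p = 5.01e-08 and 5.73e-08), and SGCB, a sarcoglycan of the dystroglycan complex, fell by 0.22 and 0.16 (adjusted p = 0.000275 and 0.00847). The other subunits of laminin-binding integrins on the list that differed or were abundant are named here after their values were seen. ITGB4, the β4 subunit that pairs with α6, was at 20.7 ± 2.72 normalized read counts in sgScr, 7.92 ± 0.347 with sgPHF8-1 and 17.6 ± 3.65 with sgPHF8-3, and its log2 fold change was -1.37 with sgPHF8-1 (adjusted p = 0.0011), -0.22 with sgPHF8-3 (adjusted p = 0.621) and -1.15 between the guides (adjusted p = 0.0235). Its raw counts were 7 to 8 with sgPHF8-1, 20 to 25 in sgScr and 14 to 22 with sgPHF8-3. ITGB4 thus met the low-count filter only through the groups where it was higher, and its calls after that filter are not read as results. It is counted among the 5 that fell with sgPHF8-1. ITGB1 and ITGA6 had log2 fold changes of -0.02 and -0.0039 with sgPHF8-1 and of -0.03 and 0.07 with sgPHF8-3 and did not pass.

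Among 17 tested genes of 23 listed for proteins that share the basement membrane with laminins, 9 fell and 2 rose with sgPHF8-1 and 7 fell and 1 rose with sgPHF8-3, at list medians of -0.20 and -0.14, beside 15.7% and 15.5% of all genes with sgPHF8-1 and 10.1% and 9.89% with sgPHF8-3. SMOC1, a calcium-binding matrix protein, fell from 725 ± 20.5 normalized read counts in sgScr to 306 ± 14.5 and 435 ± 30.5, log2 fold changes of -1.24 (adjusted p = 4.55e-20) and -0.74 (adjusted p = 3.32e-13). HSPG2, the heparan sulfate proteoglycan perlecan, fell by 0.44 and 0.41 (adjusted p = 0.00177 and 0.00473), and COL18A1, the collagen that yields endostatin, fell by 0.50 and 0.39 (adjusted p = 8.68e-14 and 7.92e-11). NID1, or nidogen, which links laminin γ1 to collagen IV, fell by 0.41 and 0.14 (adjusted p = 1.26e-11 and 0.0062). COL17A1, the hemidesmosome collagen that binds laminin-332, rose from 94.5 ± 12.0 normalized read counts to 172 ± 18.4 and 161 ± 7.17, by log2 fold changes of 0.86 (adjusted p = 5.72e-08) and 0.76 (adjusted p = 2.26e-06).

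Of 9 listed proteases that cut laminin chains, 5 were tested. With sgPHF8-1, 4 fell and 1 rose, and with sgPHF8-3, 4 fell and 0 rose, at list medians of -0.28 and -0.34, where 31.2% and 20% of all genes were called in either direction. BMP1, a metalloproteinase that processes matrix proteins, fell by 0.32 and 0.37 on the log2 scale (adjusted p = 5.86e-07 and 8.38e-08). MMP2 fell by 0.28 and 0.51 (adjusted p = 0.00024 and 1.87e-07), and MMP14, its membrane-bound activator, fell by 0.27 and 0.34 (adjusted p = 5.43e-10 and 2.71e-12). PLAT, tissue plasminogen activator, moved in opposite directions, with log2 fold changes of 0.16 with sgPHF8-1 (adjusted p = 0.000228) and -0.14 with sgPHF8-3 (adjusted p = 0.00187). Dystroglycan binds laminin through a sugar chain built by a set of enzymes, of which 16 were tested, at list medians of -0.06 and -0.05, and 4 rose and 5 fell with sgPHF8-1 (31.2% of all genes called) and 1 rose and 1 fell with sgPHF8-3, a share below the 20% of all genes called there. The 2 that passed with both guides were LARGE, which extends that sugar chain and fell by 0.57 and 0.53 (adjusted p = 8.52e-09 and 8.11e-08), and DPM1, a subunit of dolichol-phosphate mannose synthase, which rose by 0.14 and 0.12 (adjusted p = 0.00812 and 0.0462).

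**Figure D5:**
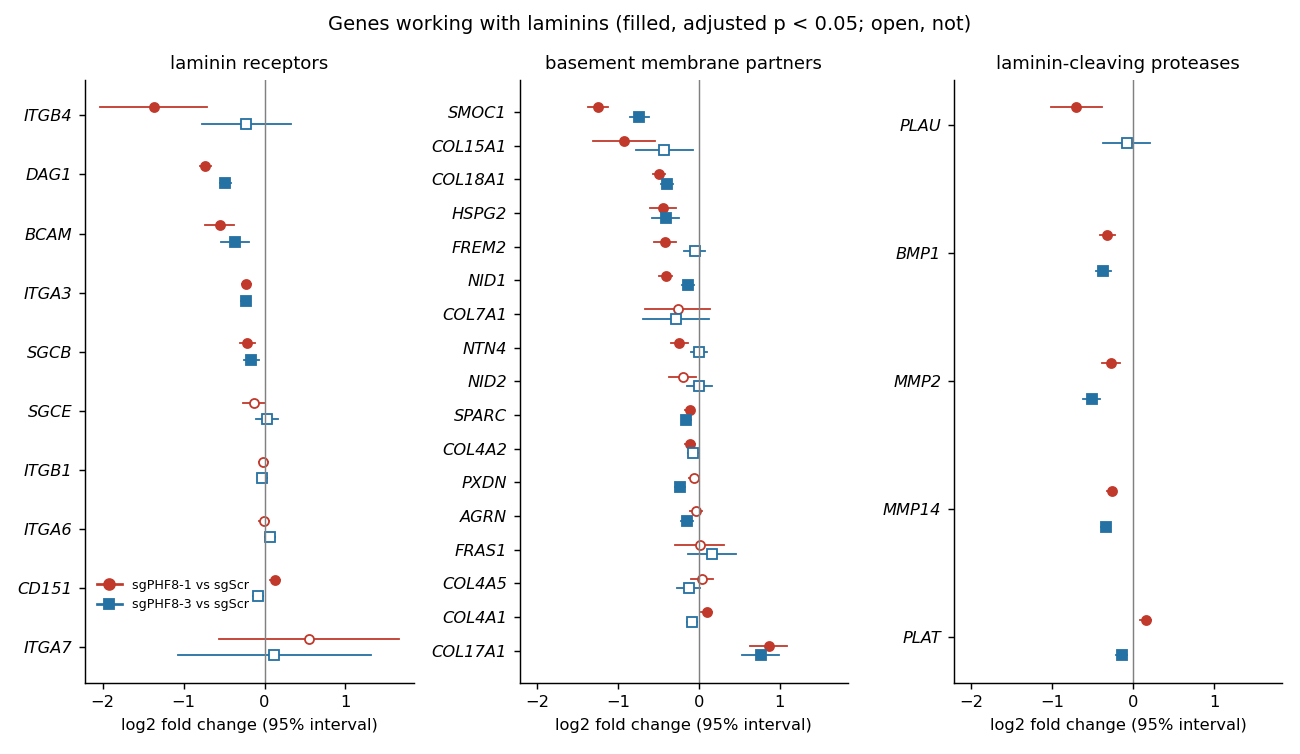
Log2 fold change against sgScr (x axis) with its 95% interval (line) for every tested gene of 3 lists, laminin receptors, basement membrane partners and laminin-cleaving proteases, with sgPHF8-1 (circles) and sgPHF8-3 (squares). Filled symbols have an adjusted p below 0.05. DAG1, SMOC1, HSPG2, COL18A1 and MMP14 lie to the left of 0 with both guides, and COL17A1 lies to the right.

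Genes whose pattern over the 9 libraries was nearest to that of a laminin gene were found by the mean absolute difference of log2(normalized read count + 1), each gene set to 0 at its sgScr mean, among 10482 genes at a mean of 100 or more. For LAMB3 they were ANKRD13A (0.0326), PPARG (0.0341) and KLHL21 (0.0366). For LAMB2 they were PPT2 (0.0149), ITGA3 (0.0196) and LZTS2 (0.0235), so that 1 gene of the receptor list was among them. For LAMC1 they were AGPAT9 (0.0158), C16orf58 (0.0183) and ARHGAP35 (0.0198), and for LAMA5, whose libraries spread more, NEDD9 (0.125), SORBS2 (0.129) and KCNQ1OT1 (0.134). These distances describe the 9 libraries and were not tested.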

How the data were processed

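RNA from 9 SKMEL-147 samples (3 groups of 3, groups from the labels) was depleted of rRNA and made into libraries with a ScriptSeq kit. The submitters' processing notes name STAR, Picard, HTSeq and DESeq2 with hg19, without versions, and the strand setting is not given in the sources used here. The authors deposited raw read counts per gene and, as a second table, the same counts divided by DESeq2 size factors, a normalized signal from which 100% of values gave whole reads within 0.01. The study describes the libraries as biological replicates. Raw counts were tested with edgeR 4.0.16 (R 4.3.3; TMM factors, filterByExpr with a minimum count of 10, robust quasi-likelihood fit to all 9 libraries, Benjamini-Hochberg over 14614 genes, threshold 0.05), checked on simulated data. Alternatives were DESeq2 1.42.0, limma 3.58.1 on log2(normalized count + 1), other size factors, no filter, a replicate block, only the groups compared, and leaving out each library. The tables hold symbols and IDs apart; all tested IDs were paired by symbol or count pattern. All 9 laminin genes and PHF8 were named. From other lists, up to 5 genes called with both guides were named, those with the largest smaller change; other markers and ITGB4, ITGB1 and ITGA6 were named outside this rule, after their values were seen. The 3 nearest genes were named for each laminin gene called with both guides. The laminin genes and the lists were chosen with earlier results of these data known. Gene positions are from GENCODE 44 on GRCh37.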

Additional observations from a re-analysis of the deposited data

Results flagged for a closer look

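For 3 laminin genes the change differed between the guides by a test of the difference itself, edgeR's quasi-likelihood test of sgPHF8-1 against sgPHF8-3 across all genes. LAMA5 was lower with sgPHF8-1 (log2 difference -0.48, adjusted p = 0.0353), LAMB1 was higher (0.23, adjusted p = 6.41e-06) and LAMB3 was higher (0.13, adjusted p = 0.00558). In each case the 3 libraries of sgPHF8-1 did not overlap the 3 of sgPHF8-3. The LAMA5 difference passed in 9 of 15 alternative settings, with adjusted p from 0.00499 to 0.261, and was -0.28 without sgPHF8-1 library B. The LAMB3 difference passed in 15 of 16 and had an adjusted p of 0.0629 without sgPHF8-3 library B, and that of LAMB1 passed in 16 of 16.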

How the results depend on the processing

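Of 27 laminin changes (9 genes in 3 comparisons), 24 kept their direction under all alternatives that gave a value, and 20 kept direction and side of the threshold. The 3 that turned did not pass the threshold either way. Without sgPHF8-1 library B, LAMA2 with sgPHF8-1 was -0.0923 (range over left-out libraries to 0.207); for LAMA4 with sgPHF8-3 the value was -0.169 without sgScr library A and -0.0217 without sgPHF8-3 library B (range to 0.299); and LAMC1 between the guides was 0.0226 without sgPHF8-1 library A (range from -0.0391). DESeq2 gave no adjusted p for LAMA1 and LAMA2, for LAMA3 and LAMA4 with sgPHF8-3 and between the guides, or for LAMA5 between the guides. LAMA1 with sgPHF8-3 passed with limma (0.97, adjusted p = 0.0463) and with no other alternative. DESeq2 called 1706 genes with sgPHF8-3 (edgeR 2921) and 915 between the guides (edgeR 1632), and the cause was not tested. Leaving out single libraries gave 3656 to 4699 genes and 6 laminin genes with sgPHF8-1, 2042 to 3520 genes and 4 laminin genes with sgPHF8-3, and 1022 to 1611 genes and 1 to 3 laminin genes between the guides, where sgPHF8-3 libraries B (1022 genes, 1 laminin gene) and C (1054 genes) mattered most. LAMA5 between the guides missed the threshold with only those groups fitted (adjusted p = 0.0574) and without any of sgPHF8-1 A or B or sgPHF8-3 A, B or C (0.0542 to 0.261). Library letters do not pair samples: same-letter correlations of deviations ran from -0.0829 to 0.0527. With the letter as a replicate block, 4456, 2830 and 1601 genes were called, and no laminin call changed. LAMA1 to LAMA4 had under 30 counts in every library, and the part of depth in their calls was not tested.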
